A study of Mus musculus with 15 samples.

Results

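The 10 genes described here build or steer the microtubules and the membrane of a growing axon: the tubulins Tuba1a, Tubb3 and Tubb2b, the microtubule and tubulin binding proteins Dcx and Dpysl3, the stathmins Stmn1, Stmn2, Stmn3 and Stmn4, and the growth cone protein Gap43. They were chosen by name, as the rows of the count files whose Ensembl gene ID carries one of these symbols in the GENCODE M21 annotation. Each of the 10 had a row among the 38561 gene IDs of the files, and each passed the filter on low counts that left 14293 genes for testing. The study sequenced RNA of mouse cerebellar Purkinje cells (PCs), the output neurons of the cerebellar cortex, which were cut out of tissue sections by laser capture microdissection. Each of 5 ages, postnatal day 0 (P0), P4, P8, P14 and P21, was sampled as 3 biological replicates (R1 to R3), which makes 15 samples. The labels give the strain as C56/BL6, whereas the study's methods give C57/BL6 and state that the animals were male. No treatment, transgene or other genetic change is named in the labels. At P4 to P21 single PC somata were captured, whereas at P0 clusters of PCs were taken because single cells were hard to isolate, so that between P0 and P4 the way of capture changed together with age and the effects of these cannot be told apart. The question addressed is how the transcripts of this axon building set change while PCs, already in place at birth, grow their dendritic trees and form synapses.

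Microtubules are polymers of alpha- and beta-tubulin dimers, and growing axons are rich in dynamic microtubules whose assembly is tuned by proteins that bind free tubulin or the polymer. Stathmins bind tubulin dimers and favour disassembly, doublecortin (Dcx) and the collapsin response mediator proteins (CRMPs) bind microtubules or tubulin and act in neuronal migration and axon guidance, and GAP-43 lies under the growth cone membrane. Several of these genes are in general use as markers of young, process-forming neurons, and mutations in tubulin and doublecortin genes are known causes of cortical malformations.

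Total counts on genes ranged from 3409371 to 7814951 per sample, so that 3 counts, taken as the floor of detection, correspond to 0.388 to 1.001 CPM (a count divided by the scaled library size of its sample, in units of 1e+06 counts). This floor covers counting error only. The share of counted reads that fell outside gene features was 24.1 to 29.8% at P0 and 17.2 to 19.1% at P21. Summed levels of 6 PC markers rose from 4549 to 6007 CPM at P0 to 36886 to 46640 CPM at P21. None of the 6 was at 0 counts in all 3 libraries of any time point. With postnatal day 6 of 6 rose, against 12.1% of all genes tested. CPM below are scaled by the trimmed mean of M values (TMM), and are given for R1, R2 and R3 in that order. In such bulk samples, fewer cells of a type and less RNA per cell cannot be told apart.

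Of the 10 genes, 8 fell with postnatal day and 1 (Stmn3) rose, while Stmn4 did not pass the test (quasi-likelihood F test of edgeR on day as a number, Benjamini-Hochberg adjusted p below 0.05 over all genes tested). Over all genes tested, 14.1% fell and 12.1% rose. With the time points as unordered groups, 10 of 10 differed between time points, against 19.3% of all genes tested. The call of Stmn4 was lost when P8 R1, P8 R2, P14 R1 or P14 R3 was left out, and those of the other 9 held with any single library left out. Summed, the 10 genes held 2.74% ± 0.0475 (SD, n = 3) of all counts on genes at P0, 1.80% ± 0.314 at P4, 1.22% ± 0.116 at P8, then 0.711% ± 0.0681 by P14 and finally 0.484% ± 0.0645 at P21. In this share the 3 samples of each time point lay below those of the preceding one. At P21, R3 was the highest library for 7 of the 10 genes, and without it 8 genes still fell.

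**Figure D1:**
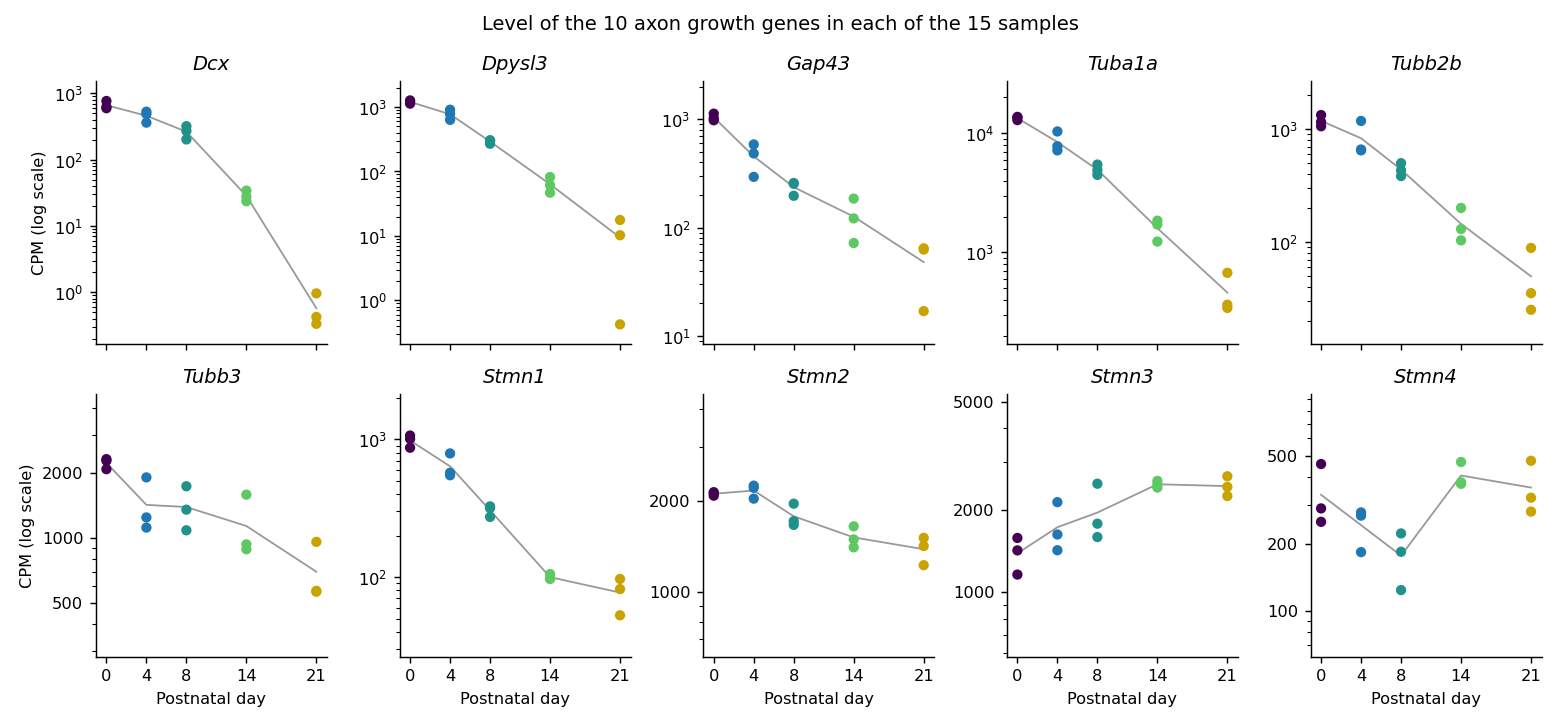
Level of each of the 10 genes (vertical axis, CPM on a log scale that differs between panels) against postnatal day, with 1 point per sample, 3 per time point, coloured by time point, and a grey line through the time point means. Dcx goes from 596 to 765 CPM at P0 to below 1 CPM at P21, Stmn3 goes up, and Stmn4 is lowest at P8.

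Tuba1a, the main alpha-tubulin of young neurons, was the most abundant of the 10 genes per length at P0. Its level was 13744, 13581 and 12908 CPM at P0, then 7187, 7786 and 10369 at P4 and 4477, 5466 and 4899 at P8, before 1713, 1846 and 1233 at P14 and 341, 364 and 673 at P21. The groups of neighbouring time points did not overlap at any of the 4 steps, and each was lower than the one before, with P4 R3 and P21 R3 the highest of their groups. It fell by 0.24 on the log2 scale per day (SE 0.012, adjusted p = 1.1e-09), which ranked 2 of 14293 genes by its p-value, and the pooled level at P0 was 27.0 times that at P21. Of all counts on the 10 genes, Tuba1a held 54.6% ± 0.868 at P0 and 8.13% ± 2.33 at P21.

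Tubb2b, a beta-tubulin of young neurons and glial progenitors, was at 1065, 1339 and 1162 CPM at P0, then 663, 651 and 1186 at P4 and 434, 501 and 386 at P8, before 201, 131 and 104 at P14 and 35.4, 25.2 and 89.0 at P21. P4 R3 lay within the range of the P0 samples, and from P4 onwards every later group lay below the earlier one. It fell with a slope of -0.23 (SE 0.018, adjusted p = 6.3e-08). Tubb3, the neuronal beta-tubulin recognised by the TuJ1 antibody, went from 2324, 2285 and 2089 CPM at P0 through 1121, 1249 and 1913 at P4, 1089, 1741 and 1357 at P8 and 1593, 889.7 and 938 at P14 to 566, 572 and 963 at P21. Here P0 stood above P4 without overlap, the later neighbours overlapped, and the P21 samples lay below those of P0. Its slope was -0.071 (SE 0.012, adjusted p = 2.4e-04), shallower than that of the other tubulins above, and 31.4% of the P0 mean remained at P21.

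Tubulin genes are close copies of one another, and the authors counted uniquely mapping reads only, so the sequences decide which reads could be counted. The last 75 coding bases of 3 beta-tubulins are shown because the carboxyl-terminal tails they encode are where tubulin isotypes differ most. The stretches of Tubb2b and Tubb2a, however, encode the same amino acids. In each pair the capitals mark bases that differ from the partner named, read 5′ to 3′ on the coding strand of GENCODE M21 transcripts and aligned at the stop codon without gaps. Tubb2b (partner Tubb2a, GRCm38 chr13:34126748-34130466, minus strand) and Tubb2a (partner Tubb2b, chr13:34074274-34078007, minus strand) differ at 3 of these positions, and Tubb3 (partner Tubb2b, chr8:123411424-123422015, plus strand) differs from Tubb2b at 45. The coding sequence of Tubb3 is longer than that of Tubb2b (1353 against 1338 bases). Without gaps, matching stretches of these 2 genes can therefore lie out of register, and 45 is not a count of substitutions.
Tubb2b: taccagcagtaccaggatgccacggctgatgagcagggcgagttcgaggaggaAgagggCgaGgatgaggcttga
Tubb2a: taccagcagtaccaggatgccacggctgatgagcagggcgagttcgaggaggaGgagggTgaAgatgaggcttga
Tubb3: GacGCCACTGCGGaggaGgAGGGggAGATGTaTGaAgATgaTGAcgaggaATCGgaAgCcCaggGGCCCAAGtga

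Over the whole coding sequence, Tuba1a and Tuba1b are identical at 98.3% of 1356 positions, Tubb2a and Tubb2b at 96.5% of 1338, and Tubb2b and Tubb3 at 83.4% of 1353 aligned positions. Of all distinct windows of 100 bases in the transcripts of a gene, 65.8% of those of Tuba1a, 26.0% of those of Tubb2b and 12.8% of those of Stmn1 also occur in a transcript of another gene (Tuba1c and pseudogenes, Tubb2a and a pseudogene, and the pseudogene Gm11223). For the other 7 genes the share was 0%. The authors trimmed the reads, and shorter windows are shared more often. With windows of 50 bases the share was 75.5% for Tuba1a, 36.9% for Tubb2b and 18.9% for Stmn1. It was 0.893% for Stmn2, 0.204% for Dcx and 0% for the rest. Levels of Tuba1a and Tubb2b are therefore uncertain against their paralogs, and the part that shared reads play in their courses was not tested. Among the paralogs, Tuba1c fell with a slope of -0.25 (SE 0.028, adjusted p = 1.8e-06 in edgeR), close to that of Tuba1a, from 38.8 ± 9.82 CPM (mean ± SD, n = 3) at P0 to 1.02 ± 0.625 at P21. Tuba1b was at 467 ± 57.1 CPM at P0, 495 ± 134 at P14 and 264 ± 34.2 at P21. Its slope of -0.034 had an adjusted p of 0.055 in edgeR, while it was lower at P21 than at P0 by a log2 change of -0.82 (adjusted p = 0.0068) and differed between the unordered time points (adjusted p = 0.011). Tubb2a was at 830.2 ± 98.3 CPM at P0 and 546 ± 176 at P21, with an adjusted p of 0.25 for its slope of -0.021 in edgeR.

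Dcx, the gene of doublecortin, which stabilises microtubules in migrating and axon-forming neurons, had the steepest fall of the 10 (chrX:143855842-143933311 on GRCm38). Its level was 596, 765 and 624 CPM at P0, then 361, 528 and 487 at P4 and 270.3, 201 and 319 at P8, before 34.1, 23.6 and 27.6 at P14 and 0.334, 0.424 and 0.961 at P21, where the 3 libraries held 1, 2 and 6 counts. No neighbouring groups overlapped. The mean level was 39.8% of that at P0 by P8, 4.29% by P14 and 0.0865% by P21. Pooled over libraries, P0 stood 1026 times above P21, with an interval of 540 to 2245 that covers counting error only. The slope of -0.43 (SE 0.043, adjusted p = 7.0e-07) ranked 113 of 14293 from the lowest.

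Dpysl3 encodes CRMP4, a tubulin and actin binding phosphoprotein of growth cones (chr18:43320984-43438286). It went from 1269, 1131 and 1212 CPM at P0 to 634, 909.9 and 778 at P4, 269.5, 305 and 302 at P8, 82.1, 61.1 and 46.8 at P14 and 17.7, 0.424 and 10.2 at P21. Every group lay below the one before, and at P21 the library R2 stood apart with 2 counts, against 53 and 64 in R1 and R3. The slope was -0.34 (SE 0.029, adjusted p = 1.2e-07), and the pooled P0 level was 141 times that of P21 (118 to 171, counting error only). Without P21 R2 the slope was -0.32 (SE 0.016), and the log2 change from P0 to P21 was -6.45 instead of -7.05. It was -7.74 without P21 R1 and -8.09 in limma-voom.

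Gap43, whose product is a protein kinase C (PKC) substrate of the growth cone and of regenerating axons, had 1124, 976 and 1023 CPM at P0, then 294, 483 and 585 at P4 and 197, 254 and 258 at P8, before 121, 185 and 72.0 at P14 and 62.8, 16.9 and 64.4 at P21 (chr16:42248442-42340651). Neighbouring groups did not overlap, and 43.6% of the P0 mean was left at P4, the lowest share of the 10 genes at that age. P14 R3 and P21 R2 were the low samples of their groups. Its slope was -0.20 (SE 0.018, adjusted p = 2.0e-07).

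Of the 4 stathmins, Stmn1 and Stmn2 fell with postnatal day, by unlike amounts, Stmn3 rose and Stmn4 did not pass the test. Stmn1, the cytosolic stathmin of dividing cells and young neurons (chr4:134468320-134473843), was at 1063, 867 and 1006 CPM at P0, then 547, 571 and 789 at P4 and 316, 326 and 273 at P8, before 97.4, 105 and 96.9 at P14 and 52.7, 81.8 and 96.9 at P21. Each group lay below the one before, although P21 R3 and P14 R3 were level to the decimal shown. It fell with a slope of -0.19 (SE 0.014, adjusted p = 3.7e-08).

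Stmn2, also known as SCG10, is a membrane-bound stathmin of neurons that marks growing and regrowing axons (chr3:8509360-8561606). Its level was 2078, 2114 and 2134 CPM at P0, then 2032, 2242 and 2206 at P4 and 1956, 1714 and 1666 at P8, before 1492, 1648 and 1406 at P14 and 1228, 1510.4 and 1419.9 at P21. P0 overlapped P4 and P14 overlapped P21, while the steps from P4 to P8 and from P8 to P14 separated. The fall was shallow, with a slope of -0.033 (SE 0.0064, adjusted p = 7.6e-04) and 65.7% of the P0 mean left at P21.

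Stmn3, or SCLIP, is a neuronal relative of Stmn2 with 73.1% identity to it over the aligned coding sequence (chr2:181306459-181314500). It was at 1584, 1163 and 1426 CPM at P0, then 1631, 2142 and 1428 at P4 and 1596, 2502 and 1786 at P8, before 2562, 2423 and 2488 at P14 and 2256, 2664 and 2436 at P21. No neighbouring groups separated, but all samples of P14 and P21 lay above all samples of P0. It rose with a slope of 0.040 (SE 0.0090, adjusted p = 0.0025), and the call was lost without P0 (slope 0.033, adjusted p = 0.051).

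Stmn4, or RB3, is the fourth, neuronal member of the family (chr14:66344296-66361680), and its course was not a straight line. The samples held 252, 290.1 and 459.9 CPM at P0, then 269, 278 and 184 at P4 and 124, 185 and 224 at P8, before 469.9, 374 and 380.5 at P14 and 324, 281 and 476 at P21. The P8 group was the lowest and lay wholly below P14, whereas P0 and P21 overlapped. The slope of 0.021 (SE 0.016) had an adjusted p of 0.37, and the test over unordered time points an adjusted p of 0.028 (0.084 without P8 R1).

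From P0 to P21 the fitted log2 change was -9.98 (SE 0.37) for Dcx, -7.05 (SE 0.65) for Dpysl3 and -4.87 (SE 0.27) for Tuba1a. It was -4.56 for Tubb2b, -4.44 for Gap43, -3.66 for Stmn1, -1.67 for Tubb3 and -0.61 for Stmn2. Without P21 R3 the change of Dcx was -10.65 and that of Tubb2b -5.30. These 8 genes were lower at P21 than at P0 (edgeR, adjusted p at most 0.0022), against 10.6% of all genes tested. Stmn3 was higher by 0.82 on the log2 scale (SE 0.19, adjusted p = 0.0041), against 12.2% of all genes called higher. Stmn4 differed by 0.11 (SE 0.28, adjusted p = 0.83), a difference within the spread between replicates. Scaling by total counts without TMM lowered the median change of all genes by 0.36 on the log2 scale (from -0.11 to -0.46) and raised the falling share of called slopes from 53.9% to 70.0%. With that scaling the rise of Stmn3 from P0 to P21 became 0.46 with an adjusted p of 0.056 in edgeR, and the difference of Stmn4 became -0.24.

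The steps between neighbouring time points place these changes. From P0 to P4, 0 of the 10 genes were called lower by edgeR, against 0.231% of all genes, while 5 were lower at an unadjusted p below 0.05, limma-voom called 4 and DESeq2 3. The share of 0.231% belongs to the edgeR calls, and shares of all genes for the other counts are not given here. The 3 samples of P4 lay below the 3 of P0 without overlap in 6 of the 10 genes, against 6.04% of all genes. From P4 to P8 1 gene was called lower, against 0.252% of all genes: Stmn1, which fell by 1.06 on the log2 scale (SE 0.21, adjusted p = 0.019), a call that did not hold when P4 R3 or any of the P8 libraries was left out. Groups separated downwards in 7 of the 10 genes at this step, against 8.30% of all genes.

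At the adjusted threshold of edgeR, the step from P8 to P14 had the most calls. There 5 genes were lower, against 1.38% of all genes, and 1 was higher, against 1.29%. At an unadjusted p below 0.05, however, 7 genes were lower from P4 to P8 and 6 from P8 to P14. DESeq2 called 5 lower both from P8 to P14 and from P14 to P21, and limma-voom called most, 5, from P8 to P14. Shares of all genes for these counts are not given here, and the steps differ in length. Over P8 to P14, Dcx changed by -3.21 (SE 0.25), Dpysl3 by -2.20 (SE 0.51), Tuba1a by -1.63 (SE 0.23), Stmn1 by -1.61 (SE 0.21) and Tubb2b by -1.60 (SE 0.38). Stmn4 rose by 1.2 on the log2 scale (SE 0.28, adjusted p = 0.029 in edgeR), so that the call for this gene ran against that of Stmn1 in the same step. Groups separated downwards in 7 genes, against 12.7% of all genes, and upwards in 1, against 12.8%. The calls of Dcx, Tuba1a and Stmn1 held when any single library of the 15 was left out, and those of Dpysl3, Tubb2b and Stmn4 did not. With P8 R1, P8 R2, P8 R3, P14 R2 or P14 R3 left out 3 genes were called lower, and without P14 R1 4 (Dpysl3 lost, adjusted p = 0.073 in edgeR). The rise of Stmn4 lost its call without any one of P8 R1, P8 R2 and the P14 libraries, with adjusted p of 0.059 to 0.14.

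From P14 to P21 3 genes were called lower, against 0.266% of all genes. Dcx changed by -5.44 (SE 0.36), the largest step of any of the 10 genes, Dpysl3 by -2.80 (SE 0.56, adjusted p = 0.045 in edgeR) and Tuba1a by -1.80 (SE 0.23). Without P21 R3 the step of Dcx was -6.11, and that of Dpysl3 was -3.50 without P21 R1, -2.21 without P21 R2 and -3.81 in limma-voom. The calls of Dcx and Tuba1a held with any single library left out, whereas that of Dpysl3 was lost in 12 of 15 such fits (adjusted p 0.053 to 0.15). DESeq2 called 5 genes lower at this step and limma-voom 1, and shares of all genes for these tools are not given here. Groups separated downwards in 6 genes, against 9.04% of all genes. Stmn1, by contrast, changed by -0.37 (SE 0.21, adjusted p = 0.81 in edgeR) after its fall up to P14.

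**Figure D2:**
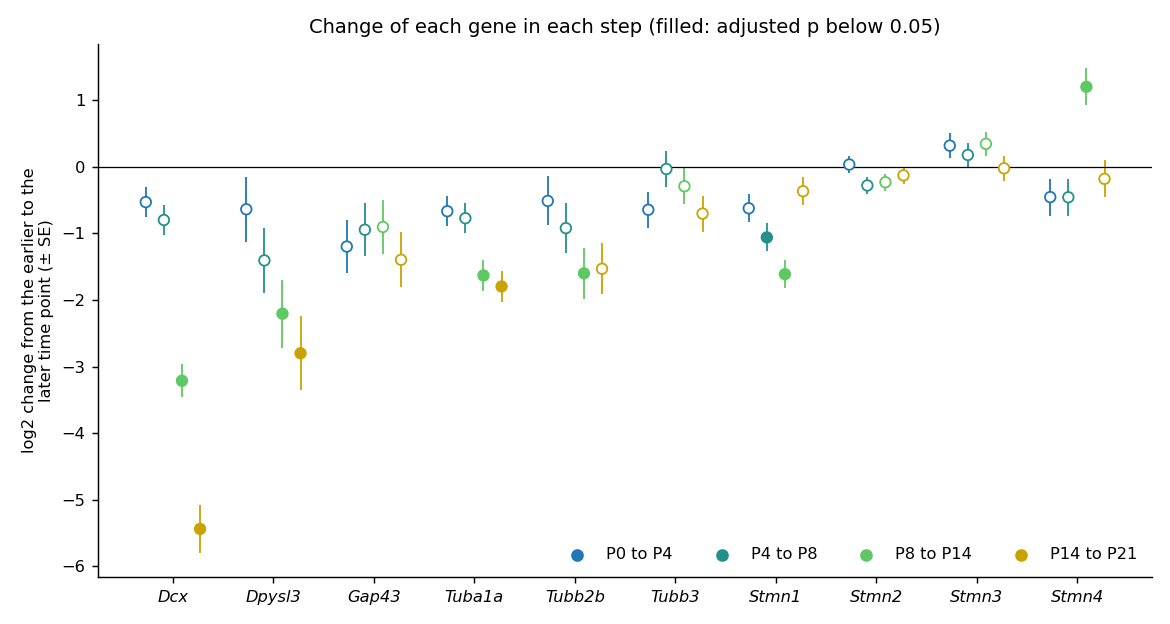
Fitted log2 change (vertical axis) of each of the 10 genes (horizontal axis) in the 4 steps between neighbouring time points, with the SE as bars. Filled points have an edgeR adjusted p below 0.05: none at P0 to P4, Stmn1 at P4 to P8, 6 genes at P8 to P14 (Stmn4 upwards) and Dcx, Dpysl3 and Tuba1a at P14 to P21.

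Levels per exon length, in RPKM (CPM divided by the exon length in kilobases), put the genes in a different order at each end of the course. At P0 Tuba1a stood first with 7438 ± 246 RPKM (mean ± SD, n = 3), followed by Stmn3 with 1224 ± 187 and Tubb3 with 1195 ± 67.6, which did not differ beyond their spread. Then came Gap43 with 684 ± 49.6, Tubb2b with 518 ± 60.6 and Stmn1 with 509 ± 52.4, of which Tubb2b and Stmn1 lay within each other's spread. Stmn2 had 376 ± 5.05, Dpysl3 182 ± 10.5, Stmn4 174 ± 57.7 and Dcx 52.3 ± 7.19 RPKM. At P21 Stmn3 stood first with 2158 ± 180.1 RPKM, and Tubb3 (375 ± 122), Tuba1a (255 ± 103), Stmn2 (247 ± 25.7) and Stmn4 (188 ± 53.5) followed, each overlapping its neighbour in this order. Tubb3 lay above Stmn4 in every sample, with at least 303 RPKM against at most 248. Stmn1, Gap43 and Tubb2b were between 21.7 and 40.1 RPKM on average, Dpysl3 had 1.43 ± 1.31 and Dcx 0.0453 ± 0.0268. Stmn3 had passed Tuba1a by P14, with 2193 ± 61.4 against 886 ± 179 RPKM.

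Within the stathmin family the summed RPKM was 2285 ± 244 at P0 and 2634 ± 208 at P21, with ranges that overlapped (2004 to 2450 and 2401 to 2804), while its make-up moved. Stmn1 made up 22.3% ± 0.431 of the sum at P0 and 1.51% ± 0.363 at P21, Stmn2 16.6% ± 1.95 and 9.38% ± 0.244, and Stmn3 53.4% ± 3.06 and 81.9% ± 2.16. Stmn4 held 7.64% ± 2.32 at P0, 4.08% ± 1.22 at P8 and 7.16% ± 1.99 at P21. The sum of the alpha-tubulins, in contrast, went from 7715 ± 217 to 797 ± 220 RPKM. Tuba1a made up 96.4% ± 0.482 of this sum at P0 and 31.3% ± 3.68 at P21, where Tuba8 held 28.8% ± 1.93, Tuba4a 21.8% ± 0.804 and Tuba1b 18.1% ± 2.41. The beta-tubulin sum went from 3297 ± 231 to 1384 ± 407 RPKM, with Tubb2b going from 15.7% ± 1.41 to 1.46% ± 0.576 and Tubb3 from 36.3% ± 1.56 to 27.0% ± 0.798. Tubb4a, a beta-tubulin also made by oligodendrocytes, went from 7.27% ± 1.0 to 24.0% ± 3.04. Summed oligodendrocyte markers went from 22.4 ± 11.8 to 569 ± 241 CPM in the same samples, and their part in this share was not tested. Shares of near-identical genes carry the uncertainty of read assignment given above. Sums and shares also depend on the exon lengths, which cover all annotated exons of a gene (5602 bases for Stmn2, 1136 for Stmn3). In CPM, Stmn2 stood above Stmn3 at P0 (2109 ± 28.3 against 1391 ± 213). At P21 Stmn3 stood above Stmn2 in CPM too (2452 ± 205 against 1386 ± 144).

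**Figure D3:**
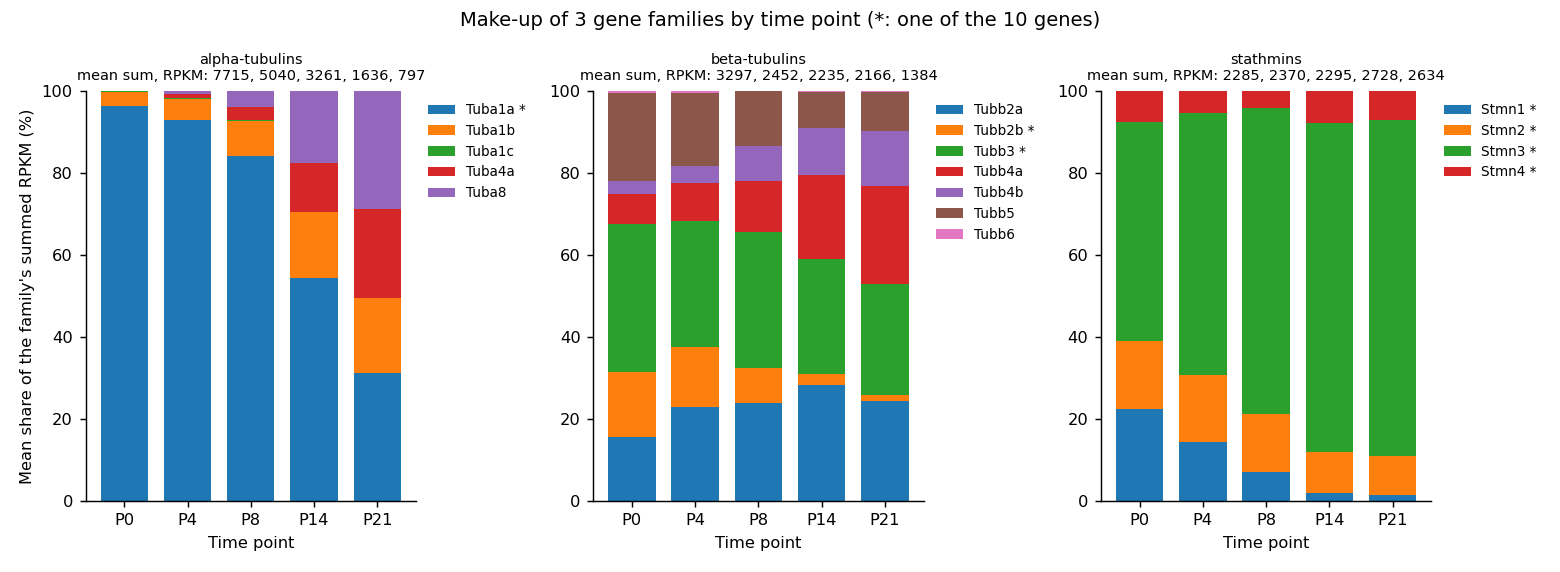
Mean share of the family's summed RPKM (vertical axis, %, n = 3 per time point) held by each gene of the alpha-tubulins, beta-tubulins and stathmins at the 5 time points, with the mean sums above each panel. Tuba1a takes 96.4% of the alpha-tubulin sum at P0 and 31.3% at P21, and Stmn3 takes 53.4% and 81.9% of the stathmin sum. These shares depend on the exon lengths used.

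Lists of 70 other cytoskeleton genes give the setting of these changes. All 70 were tested, 33 (47.1%) fell with postnatal day, 11 (15.7%) rose and 26 did not pass the test, against 14.1% falling and 12.1% rising over all genes tested, so that the rising share lay near that of all genes. The median slope was of -0.033 on the log2 scale per day, against -0.0077 for all genes tested and -0.20 for the 10 genes. With the logarithm of day in place of day, 21 of the 70 fell, and the share of all genes that fell in that fit is not given here. Of 11 other tubulins, 18.2% fell and 36.4% rose. The 2 that fell were Tuba1c (-0.25 per day, SE 0.028) and Tubb5 (-0.12, SE 0.0086), and the 4 that rose were led by Tuba8 (0.24, SE 0.057) and Tuba4a (0.19, SE 0.034). Tuba8 went from 7.18 ± 7.49 CPM at P0 to 513 ± 103 at P21, and Tuba4a, whose product lacks the genetically encoded terminal tyrosine of other alpha-tubulins, from 28.4 ± 2.34 to 646 ± 200.4. All 6 other members of the CRMP and doublecortin families fell, with the steepest slopes for Dpysl5 (-0.17, SE 0.019), the gene of CRMP5, and the doublecortin-like kinase gene Dclk2 (-0.12, SE 0.020). The 4 membrane PKC substrates related to Gap43 in function also fell (median slope -0.20), among them Basp1 (-0.21, SE 0.026) and the neurogranin gene Nrgn, which was low throughout (14.6 ± 15.8 CPM at P0).

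Of 13 actin regulators of the growth cone, 9 (69.2%) fell and 4 did not pass the test. Over all genes tested, 14.1% fell and 12.1% rose, and no list was tested against these shares. Tmsb10, whose thymosin product sequesters actin monomers, went from 463 ± 49.2 CPM at P0 to 10.3 ± 0.311 at P21, and Enah, an actin filament elongator, had a slope of -0.12 (SE 0.043). Of 16 enzymes that fold or modify tubulin, 6 (37.5%) fell, 2 (12.5%) rose and 8 did not pass the test. The rising share lay near that of all genes. The tubulin carboxypeptidase gene Vash2 (-0.25, SE 0.055) and its partner Svbp (-0.13, SE 0.013) fell, while the polyglutamylase gene Ttll7 (0.18, SE 0.014) and the deglutamylase gene Agtpbp1 (0.087, SE 0.013) rose. Of 10 genes for microtubule end and severing proteins, 3 (30%) fell and 2 (20%) rose: the end binding genes Mapre1 (-0.12, SE 0.013) and Mapre3 (0.13, SE 0.013) moved in opposite directions, Mapre2 rose (0.041) and the severing enzyme gene Spast fell (-0.070). Of 10 neurofilament and structural microtubule-associated protein (MAP) genes, 3 fell and 3 rose (30% each). Map1b, the MAP of growing axons, went from 5873 ± 1086 CPM at P0 to 1090.1 ± 349 at P21 and Map2 fell with a slope of -0.079 (SE 0.0094), whereas Nefh, the heavy neurofilament gene of mature axons, went from 6.62 ± 11.3 to 379.7 ± 70.7 CPM and Map1a rose with a slope of 0.079 (SE 0.014).

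**Figure D4:**
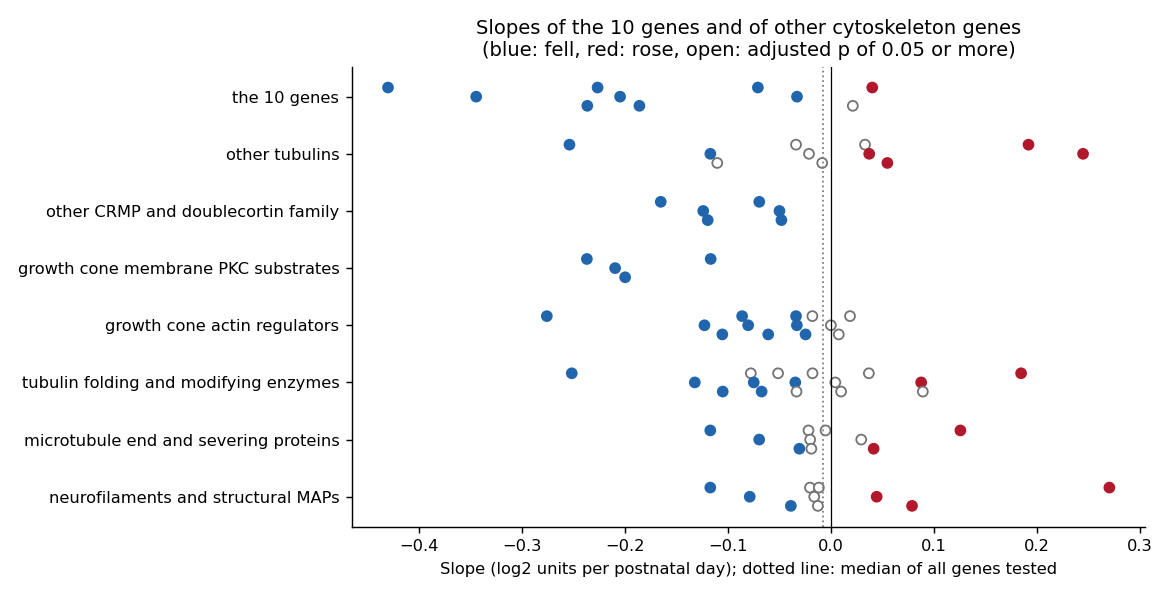
Slope per postnatal day (horizontal axis, log2 units, with 1 point per gene) of the 10 genes and of the genes of 7 other cytoskeleton lists (vertical axis). Blue points fell and red points rose in edgeR (adjusted p below 0.05), open points did not pass, and the dotted line is the median of all genes tested, -0.0077; all 6 genes of the CRMP and doublecortin list and all 4 PKC substrates are blue.

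Markers of other cerebellar cells were summed in the same samples, since neighbouring young neurons also make these transcripts. Among all genes tested with edgeR, 14.1% fell and 12.1% rose with postnatal day, and no marker list was tested against these shares. Of 5 markers of granule cell precursors and immature granule neurons, 4 were tested, of which edgeR called 0 (1 at an unadjusted p below 0.05) and limma-voom and DESeq2 0, with sums of 200 to 312 CPM at P0, 518 to 758 at P8 and 188 to 338 at P21, and Atoh1, the defining precursor gene, was at 0 in all samples. Of 8 markers of Bergmann glia and astrocytes, 2 fell, among them Fabp7, and 3 rose, with sums of 3872 to 5577 CPM at P0, 8174 to 9807 at P8 and 3425 to 4968 at P21. All 5 oligodendrocyte markers rose, from sums of 13.7 to 35.9 CPM at P0, with Mag and Mobp at 0, to 396 to 845 at P21. Of 3 vascular markers 1 fell, with sums of 33.5 to 121 CPM at P0 and 16.0 to 35.4 at P21, and of 3 mature granule neuron markers 2 rose, with sums of 59.1 to 89.0 CPM at P0, 164 to 402 at P14 and 105 to 183 at P21. For 3 markers of inhibitory interneurons the sums were 34.4 to 64.5 CPM at P0, 126 to 145 at P4, where they were highest, and 11.6 to 51.2 at P21, and edgeR called 0 of them (3 at an unadjusted p below 0.05), limma-voom 1 and DESeq2 3. For 3 markers of other excitatory neurons, 2 of them tested, the sums were 27.7 to 50.8 CPM at P0, 3.19 to 27.0 at P4, 17.9 to 55.5 at P8 and 8.05 to 12.3 at P21, with Tbr1 at 0 at P0 and P21, and edgeR called 0 (1 at an unadjusted p below 0.05), limma-voom 0 and DESeq2 1. For 4 microglia markers the sums were 0 to 7.90 CPM at P0, 17.0 to 22.7 at P8 and 1.34 to 5.72 at P21, with 0 called by edgeR (0 also at an unadjusted p below 0.05), limma-voom or DESeq2. The summed level of the 10 genes was 24045 to 25100 CPM at P0 and 4884 to 6229 at P21. The part of other cells in these levels was not tested.

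Across the 15 samples, correlations among the 8 genes that fell describe samples that share their age groups and library sizes. As these 8 were picked for falling with day in the same samples, high correlations among them follow in part from that choice. Their 28 pairs had correlations (Pearson's r of log2 CPM) of 0.707, for Stmn2 and Tubb3, to 0.990. The 15 pairs among Dcx, Dpysl3, Gap43, Tuba1a, Tubb2b and Stmn1, the 6 with slopes below -0.1, had 0.882 to 0.990. The 13 pairs with Stmn2 or Tubb3 had 0.707 to 0.945. Against the mean of the other 9 genes, r was 0.969 for Tuba1a, 0.884 for Tubb3, 0.836 for Stmn2, -0.316 for Stmn4 and -0.773 for Stmn3. The gene outside the set whose course was most like the mean of the 10 was Gm14150 (r = 0.979, n = 15), at 117 CPM on average at P0 and 5.99 at P21, a processed pseudogene with alpha-tubulin sequence at chr2:151458956-151460309. Of its 1305 distinct windows of 50 bases, 40.0% occur in Tuba1a transcripts and 62.5% in those of Tuba1b, and whether reads of these genes were counted there was not tested. Next came Enc1 (r = 0.969), which encodes an actin binding protein of the nervous system and went from 308 CPM at P0 to 0.547 at P21, and Mn1 (r = 0.969), a transcriptional cofactor, from 179.7 to 3.43. The elongation factor gene Eef1g (r = 0.968) went from 217 to 90.5 CPM, and Cd24a (r = 0.968), a surface glycoprotein gene of young neurons, from 351 to 0.267 CPM.

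Promoter sequences were looked at as a property that the choice of genes did not use. RefSeq windows of 300 bases (250 before to 50 after the start, GRCm38.p6) matched 4 of the 10 genes: Dcx, Tuba1a, Tubb3 and Stmn3. Shown are 120 bases that lie ahead of both the RefSeq and the GENCODE M21 start, for a gene that fell to the floor (Dcx, the first of 2 entries, chrX:143933312-143933431, minus strand), one that fell in part (Tubb3, chr8:123411304-123411423, plus strand) and the one that rose (Stmn3, chr2:181314501-181314620, minus strand), each 5′ to 3′ on the strand of the gene. Capitals mark matches to the motifs named after them.
Dcx: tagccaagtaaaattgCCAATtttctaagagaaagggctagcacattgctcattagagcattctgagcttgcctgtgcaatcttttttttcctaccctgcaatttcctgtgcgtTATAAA
Tubb3: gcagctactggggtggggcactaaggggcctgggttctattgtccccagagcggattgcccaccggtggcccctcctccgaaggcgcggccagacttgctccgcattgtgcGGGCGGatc
Stmn3: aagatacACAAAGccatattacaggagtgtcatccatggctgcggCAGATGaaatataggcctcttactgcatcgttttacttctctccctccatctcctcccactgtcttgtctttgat

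The letters searched, on both strands, were TATAAA (in 13.6% of 32851 promoter windows), CCAAT (37.4%), GGGCGG (35.7%), CAGCTG (16.3%), CAGATG (17.2%) and ACAAAG (18.7%), none of which overlap here. In the full windows both entries of Dcx held 1 TATAAA and 1 CCAAT and the second also 1 ACAAAG, Tubb3 1 CCAAT and 2 GGGCGG, Tuba1a 1 CCAAT and 1 GGGCGG, and Stmn3 1 CAGATG and 1 ACAAAG. The GC content was 43.0% and 44.7% for the entries of Dcx, 49.7% for Stmn3, 59.0% for Tuba1a and 67.3% for Tubb3. A match describes the letters only and is no evidence that a factor binds there.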

How the data were processed

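Sequencing libraries came from laser-captured PCs at 5 time points with 3 biological replicates each, which were grouped by the sample labels. The authors trimmed the reads (FASTX Toolkit, cutadapt 1.2.1 per the labels), aligned them to GRCm38 (mm10) with GSNAP, kept uniquely mapping reads and deposited whole-number counts per Ensembl gene from HTSeq 0.5.3p9 in intersection-strict mode, without normalization and with 1 library per sample. The annotation release is not given in the sources used here, and the 5 tallies of uncounted reads were kept out. GENCODE M21 gave symbols, coordinates and exon lengths (36723 of 38561 IDs matched).

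From the counts, edgeR 4.0.16 in R 4.3.3 (TMM, filterByExpr by time point, quasi-likelihood F test) was fitted to all 14293 genes passing the filter, on day as a number and on time point as a factor, with Benjamini-Hochberg adjustment over all of them at 0.05. In the fit on day as a number, the biological coefficient of variation was 0.757, which includes departures from a straight line. SEs were derived from the estimate and its F statistic. RPKM used TMM-scaled CPM and the merged length of all annotated exons of a gene. The script for the fits was tested on simulated data. Depth was 3409371 to 7814951 counts per sample, and replicate p-values cover the spread between these samples. Alternatives were DESeq2 1.42.0, limma-voom (limma 3.58.1), DESeq2 size factors, total counts (added after seeing the data), no low count filter, a replicate block, log2(day + 1), no P0, and each library left out.

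All 10 genes are named. From each list the 2 genes with the largest slope each way among those called are named, besides paralogs and markers, and the 5 genes with the highest r to the mean z-score of the 10 among those with a mean of at least 10 CPM (log2 with 0.5 CPM added). The 10 genes and all lists were chosen with earlier results of these data known.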

Additional observations from a re-analysis of the deposited data

How the results depend on the processing

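The count of 8 falling genes with postnatal day, the count of 8 genes lower at P21 than at P0 and the slopes of the 8 genes kept their direction and their side of the threshold in every alternative run. Counts per step moved more, and the shares of all genes called in these other runs are not given here. From P0 to P4, DESeq2 called 3 and limma-voom 4 genes lower where edgeR called 0, and omission of single libraries gave 0 to 1. From P4 to P8, DESeq2 called 3 and limma-voom 4 where edgeR called 1, and omissions gave 0 to 2. From P8 to P14 omissions gave 3 to 5. From P14 to P21, DESeq2 called 5 and limma-voom 1 where edgeR called 3. With log2(day + 1) 21 of the 70 other cytoskeleton genes fell, against 33 with day, and the share of all genes in that fit is not given here. The difference of Stmn4 between P0 and P21 changed sign with total counts (-0.24) and when P0 R1, P0 R2 or P21 R3 was left out, with -0.14 to 0.37 over all omissions, and passed no threshold in any of them. The rise of Stmn3 lost its call without P0 (slope 0.033) and, from P0 to P21, with total counts (0.46). The cause was not tested in any of these cases. Replicate numbers are not tied to litters or days in the labels, and deviations from the time point means were correlated by -0.031 to 0.049 over 30 pairs of samples with the same number and by -0.054 to 0.038 over 60 pairs with different numbers. A fit with the replicate block called 8 falling genes over the course, 5 from P8 to P14 and 2 from P14 to P21. At P21, counts of 1 to 6 per library for Dcx limit how far its level can be told from the floor of 3 counts.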
